A study of Mus musculus with 12 samples.

Results

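The epidermal growth factor (EGF)-like ligands and their ERBB receptors were followed in granulosa cells of preovulatory mouse follicles. The 7 genes were the ligands Ereg, Btc, Epgn and Hbegf and the receptors Egfr, Erbb2 and Erbb3, chosen by symbol among 18193 genes measured on 12 arrays. They had 16 probe sets that name 1 gene only, of 34945 such probe sets in all, and each gene is described by the probe set with its highest mean over these arrays. Per the labels, the cells were taken by laser capture from mice, 3 weeks of age, that were wild type (WT) or bERKO, the name in use for mice that lack estrogen receptor beta. All mice had received pregnant mare serum gonadotropin (PMSG), which acts like follicle-stimulating hormone, and the PMSG groups were collected 48 h later. The hCG groups also received human chorionic gonadotropin (hCG), which acts like luteinizing hormone, and were collected 4 h after it. The labels call the 3 arrays of each of the 4 groups biological replicates. No source used here gives the number of animals behind an array, the bERKO allele or the strain, so p-values measure the spread between these arrays.

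EGF-like ligands are made as membrane-bound precursors that proteases on the cell surface cut free. The freed ligands bind the EGF receptor or its relatives, which pair up and signal through RAS and the MAP kinases. In the ovary, luteinizing hormone raises cyclic AMP in mural granulosa cells, which then make EGF-like ligands. These act on neighbouring granulosa and cumulus cells to switch on cumulus expansion, resumption of meiosis and other steps toward ovulation.

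A level below is log2(intensity + 16) after quantile normalization, with a floor of 4 at an intensity of 0. A change is a difference of group mean levels, and it understates the change of dim genes. A change passed where limma's adjusted p, over all 18193 genes of the comparison, was under 0.05. A control measure stood apart on 2 arrays: the ratio of the 3' to the 5' control probe sets of Gapdh, a measure that goes up with degraded or incompletely copied RNA, was 32.2 on WT hCG replicate 1 and 23.7 on bERKO PMSG replicate 3, against 4.72 to 11.2 on the other 10 arrays. Beta-actin (Actb) controls, read in the same way, set apart bERKO PMSG replicate 3 alone, at 1.61. WT hCG replicate 1 was at 1.02 by beta-actin, within the range of 0.89 to 1.15 seen elsewhere. The 2 control genes thus disagreed on WT hCG replicate 1, and whether its RNA was degraded was not tested. Because of the Gapdh ratio, results for these 7 genes are also given without WT hCG replicate 1, or without both arrays of high Gapdh ratio, where that changes them. Esr2, which encodes estrogen receptor beta, was at 10.33, 9.01 and 9.33 after PMSG in WT and at 8.19, 8.64 and 8.13 in bERKO. That change of -1.24 did not pass in limma (adjusted p = 0.307), and no source used here says whether its probe set lies within the disrupted part. The 8 measured granulosa markers, among them Fshr, Foxl2 and Amh, had array means from 12.05 to 12.34 in WT PMSG, bERKO PMSG and WT hCG and from 11.31 to 11.49 in bERKO hCG. In such bulk samples, fewer cells of a type and less RNA per cell cannot be told apart.

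The strongest pattern was a rise of 3 ligands after hCG. In bERKO, Ereg, Btc and Epgn rose with hCG and Erbb2 fell, so that 4 of the 7 genes passed (3 higher, 1 lower), where 18.9% of all genes passed, 7.05% higher and 11.9% lower. In WT, Ereg alone passed, as higher, 1 of 7, where 2.08% of all genes passed and 0.731% passed as higher. Btc and Epgn also had higher means after hCG in WT (changes of 4.24 and 3.43). They passed without WT hCG replicate 1, making 3 of 7. The median change of the 7 genes was 0.11 in WT, against -0.08 over all genes, and -0.76 in bERKO, against -0.19.

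**Figure D1:**
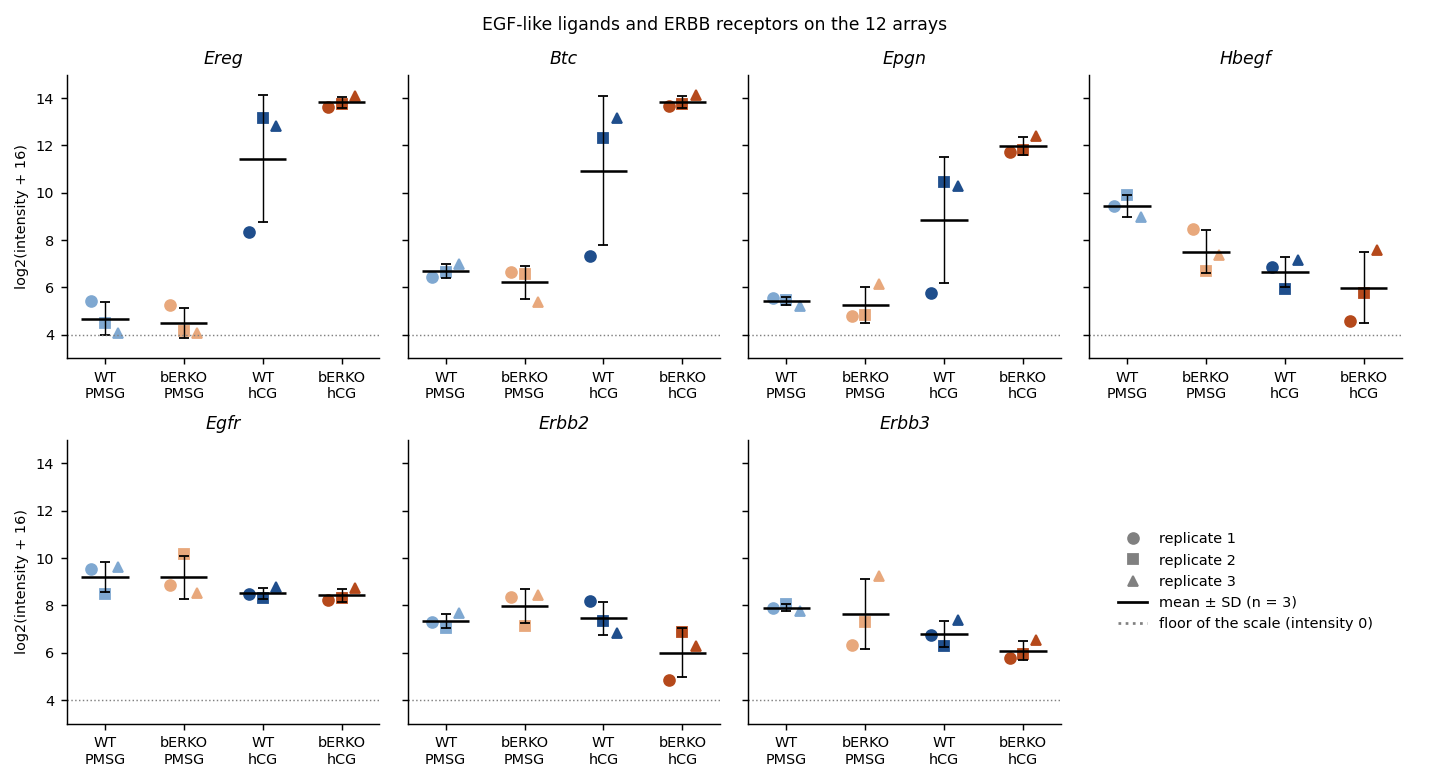
Level of each gene, log2(intensity + 16), on each of the 12 arrays by group; points are arrays, black lines are group means with 1 SD (n = 3), and the dotted line is the floor of 4. Ereg, Btc and Epgn stand high on all 3 bERKO hCG arrays and on WT hCG replicates 2 and 3, with WT hCG replicate 1 below them, while Hbegf is highest on the WT PMSG arrays.

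Epiregulin, encoded by Ereg, is one of the ligands by which granulosa cells pass on the luteinizing hormone signal. After PMSG, Ereg lay near the floor, at 5.44, 4.49 and 4.08 on the WT arrays and at 5.24, 4.15 and 4.09 on the bERKO arrays. After hCG it was at 8.35, 13.16 and 12.84 in WT and at 13.64, 13.74 and 14.10 in bERKO. Every hCG array was above every PMSG array, and the lowest hCG value was WT hCG replicate 1. The mean rose from 4.67 ± 0.70 to 11.45 ± 2.69 (SD, n = 3) in WT, a change of 6.78 (SE 0.99; limma adjusted p = 0.00952). In bERKO it rose from 4.49 ± 0.65 to 13.83 ± 0.24 (SD, n = 3), a change of 9.33 (SE 0.99; limma adjusted p = 2.39e-04). Ereg kept both calls whichever array was left out, at a limma adjusted p of at most 0.0474 in WT and 0.00173 in bERKO. Without WT hCG replicate 1 its change in WT was 8.33.

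Betacellulin, encoded by Btc, binds the EGF receptor and ERBB4. After PMSG, Btc was at 6.42, 6.67 and 7.01 in WT and at 6.66, 6.59 and 5.40 in bERKO. With hCG it reached 7.34, 12.31 and 13.18 in WT and 13.65, 13.75 and 14.12 in bERKO. As with Ereg, the hCG arrays lay above the PMSG arrays without overlap, but WT hCG replicate 1 was only just above the highest WT PMSG array, 7.34 against 7.01. The change in bERKO was 7.62 (SE 1.12; limma adjusted p = 0.00106). In WT it was 4.24 (SE 1.12) and did not pass (limma adjusted p = 0.0771), but leaving out WT hCG replicate 1 gave 6.04, which passed (limma adjusted p = 1.36e-04). A second probe set of Btc gave 4.23 in WT and 7.23 in bERKO.

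Epigen, encoded by Epgn, is a further ligand of the EGF receptor. After PMSG, Epgn was at 5.55, 5.47 and 5.22 in WT and at 4.81, 4.83 and 6.15 in bERKO. The hCG arrays gave 5.78, 10.47 and 10.29 in WT and 11.73, 11.80 and 12.40 in bERKO. WT hCG replicate 1 thus lay close to the PMSG arrays, while the other 5 hCG arrays stood well above them. The change was 6.71 in bERKO (SE 0.97; limma adjusted p = 9.52e-04). In WT it was 3.43 (SE 0.97; limma adjusted p = 0.094), and with WT hCG replicate 1 left out it was 4.96 (limma adjusted p = 3.63e-04). The 10 ovulatory genes described below had a mean level of 8.29 on that array, against 7.32 to 7.39 on the WT PMSG arrays and 11.16 and 11.32 for WT hCG replicates 2 and 3.

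Epgn, Ereg and Btc are neighbours on chromosome 5, with Areg, which was not analysed here, between Ereg and Btc in RefSeq's gene order. Over the 12 arrays their levels ran together: Pearson's r was 0.98 for Ereg with Btc, 0.96 for Ereg with Epgn and 0.97 for Btc with Epgn, as a description over arrays that share their treatment. Of the 12 measured genes around them in that order, none passed in WT (0 in limma, with 1 at an unadjusted p under 0.05), from Pf4 on one side to Ppef2 on the other. In bERKO 2 of the 12 passed as higher, the platelet chemokine Pf4 (2.17, limma adjusted p = 0.0109) and Parm1 (2.34, limma adjusted p = 0.0281). The kinase Cdkl2 alone passed as lower (-1.76, limma adjusted p = 0.0246). Over all genes 7.05% passed as higher and 11.9% as lower. Pf4 kept its call whichever array was left out, while Parm1 lost it without any 1 of 5 arrays (limma adjusted p of up to 0.0765, without bERKO hCG replicate 2) and Cdkl2 without any 1 of 3 (up to 0.0822, without bERKO hCG replicate 3). Parm1 lies next to Btc. The gene next to Epgn, Mthfd2l, had changes of -0.35 in WT and 1.11 in bERKO that did not pass.

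**Figure D2:**
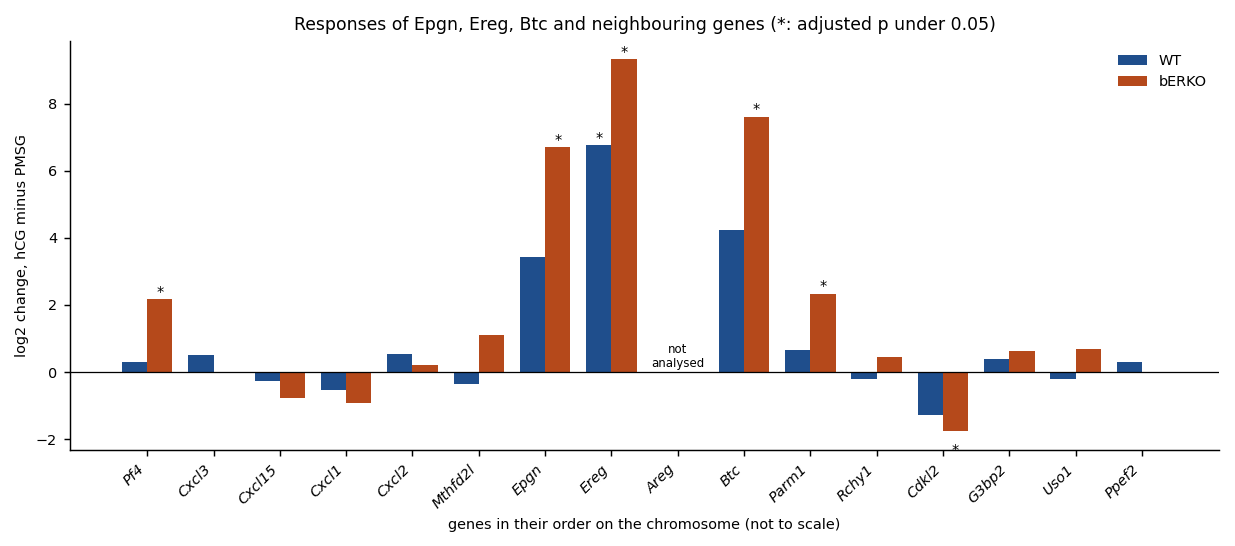
Change with hCG, as a log2 difference of group means, in WT and bERKO for the genes around Epgn, Ereg and Btc, drawn in their order along chromosome 5 and not to scale; a star marks a limma adjusted p under 0.05, and Areg was not analysed here. The bars of Epgn, Ereg and Btc reach 3.43 to 9.33, and those of the neighbours stay between -1.76 and 2.34.

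Because these 3 genes moved together after a hormone that acts through cyclic AMP, the 250 bases before the RefSeq start of each gene were searched for sites known to answer that signal. Windows were given for 4 of the 7 genes, Epgn, Btc, Egfr and Erbb2 (RefSeq, GRCm38.p6), and both strands were searched for TGACGTCA, the full cyclic AMP response element, for its core TGACG, for the AP-1 site TGANTCA and for TATAAA. The windows of Epgn and Btc are shown since both genes moved with hCG, 5′ to 3′ on the gene's strand, with the core in capitals (as its reverse complement in Btc).
Epgn, chr5:91027267-91027516, plus strand: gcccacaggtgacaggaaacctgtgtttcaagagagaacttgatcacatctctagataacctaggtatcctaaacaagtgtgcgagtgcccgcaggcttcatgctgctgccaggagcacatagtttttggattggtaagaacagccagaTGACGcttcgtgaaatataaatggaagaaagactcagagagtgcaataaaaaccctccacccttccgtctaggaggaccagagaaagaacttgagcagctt
Btc, chr5:91402995-91403244, minus strand: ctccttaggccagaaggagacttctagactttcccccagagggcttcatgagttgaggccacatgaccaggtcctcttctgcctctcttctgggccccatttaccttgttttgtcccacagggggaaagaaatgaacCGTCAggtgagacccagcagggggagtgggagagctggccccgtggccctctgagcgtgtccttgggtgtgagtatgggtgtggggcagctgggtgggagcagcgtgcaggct

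The core lay 101 bases before the start in Epgn, on the gene's strand, and 113 bases before it in Btc, on the other strand. Erbb2, which fell in bERKO, also held 1, 171 bases before its start, and Egfr held 0. The full element, which contains the core, and the AP-1 site were in 0 of the 4 windows, and TATAAA was in the window of Epgn alone, 86 bases before the start. Among 32851 windows of all genes, 17.8% held the core, 1.55% the full element, 6.75% the AP-1 site and 12.4% TATAAA. A match is a description of letters, not of a bound site.

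Heparin-binding EGF-like growth factor, encoded by Hbegf, went the other way. After PMSG, Hbegf was at 9.45, 9.89 and 8.97 in WT and at 8.48, 6.68 and 7.37 in bERKO. After hCG it was at 6.88, 5.92 and 7.15 in WT and at 4.60, 5.77 and 7.58 in bERKO. The 3 WT PMSG arrays were above all 9 others. The change with hCG in WT was -2.79 (SE 0.68) and did not pass (limma adjusted p = 0.0622). In bERKO it was -1.52 (SE 0.68; limma adjusted p = 0.147), with overlapping groups. The values in WT were close to the threshold and passed under several other settings: -2.90 with each array centred on its median (limma adjusted p = 0.0416), -2.63 as the mean of both probe sets (0.0173), -3.04 with array quality weights (0.0142) and -2.79 with dim genes left out of the adjustment (0.0405). Leaving out bERKO hCG replicate 1 or 3, which left this change in WT as it was, also brought it past the threshold (limma adjusted p = 0.0484 and 0.032). A second probe set, tested among all 34945, passed in both genotypes, with -2.48 in WT (limma adjusted p = 0.0321) and -1.91 in bERKO (0.0149). The mean of both probe sets passed in bERKO too, at -1.72 (limma adjusted p = 0.0175), and the first probe set did so without bERKO hCG replicate 3, at -2.32 (0.0262).

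The receptors followed, of which Erbb2 alone passed by its main probe set, in bERKO. Egfr, the receptor that these ligands share, was at 9.54, 8.49 and 9.63 in WT and at 8.85, 10.19 and 8.51 in bERKO after PMSG. After hCG it was at 8.47, 8.31 and 8.78 in WT and at 8.22, 8.31 and 8.73 in bERKO. The groups overlapped in both genotypes, and the hCG arrays were closer to each other than the PMSG arrays were. The changes were -0.70 in WT (95% interval -1.66 to 0.26; limma adjusted p = 0.471) and -0.76 in bERKO (-1.73 to 0.20; 0.258). The 7 probe sets of Egfr disagreed, from -0.96 to 1.36 in WT and from -2.15 to 0.77 in bERKO. The change of -0.96 came from a dim probe set, with WT means of 5.72 after PMSG and 4.76 after hCG. The change of 1.36 took in a low WT PMSG replicate 3, at 4.53 against 7.92 and 7.10 on replicates 1 and 2. The change of 0.77 took in bERKO PMSG replicate 3, an array of high Gapdh ratio. It lay near the floor there, against 8.43 and 7.49 on replicates 1 and 2. The probe set with the change of -2.15 in bERKO passed among all 34945 probe sets (limma adjusted p = 0.0117), beside 0.09 in WT. It was at 8.39, 10.10 and 9.80 in bERKO after PMSG and at 7.86, 7.31 and 6.66 after hCG, without overlap. No source used here says which transcripts of Egfr each probe set reads.

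ERBB2 has no known ligand of its own and serves as a partner of the other receptors. After PMSG, Erbb2 was at 7.30, 7.04 and 7.66 in WT and at 8.34, 7.14 and 8.43 in bERKO. After hCG it was at 8.18, 7.33 and 6.83 in WT and at 4.85, 6.86 and 6.29 in bERKO. All 3 bERKO hCG arrays were below all 3 bERKO PMSG arrays, while the WT groups overlapped. In bERKO Erbb2 fell by 1.97 on the log2 scale (SE 0.54; limma adjusted p = 0.0247), whereas in WT its change was 0.11 (limma adjusted p = 0.951). The call in bERKO rested on single arrays. It was lost without bERKO hCG replicate 1, which had the lowest value (-1.40; limma adjusted p = 0.0891), without bERKO PMSG replicate 1 (-1.79; 0.0745) and without bERKO PMSG replicate 3 (-1.74; 0.0756). Without both arrays of high Gapdh ratio it was also lost (-1.74; limma adjusted p = 0.0611). In WT the change turned to -0.26 without WT hCG replicate 1.

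ERBB3 binds neuregulins and signals mainly through its partners, since its own kinase is weak. After PMSG, Erbb3 was at 7.89, 8.04 and 7.75 in WT and at 6.34, 7.31 and 9.24 in bERKO. After hCG it was at 6.77, 6.27 and 7.37 in WT and at 5.78, 5.93 and 6.56 in bERKO. The WT groups did not overlap, and the highest value of all was on bERKO PMSG replicate 3, an array of high Gapdh ratio. Neither change passed, at -1.09 in WT (limma adjusted p = 0.384) and -1.54 in bERKO (0.0917). In bERKO it ran from -2.19 without bERKO PMSG replicate 1, which passed (limma adjusted p = 0.0203), to -0.74 without bERKO PMSG replicate 3 (0.249). A second, dimmer probe set gave 0.15 in WT and -0.17 in bERKO.

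**Figure D3:**
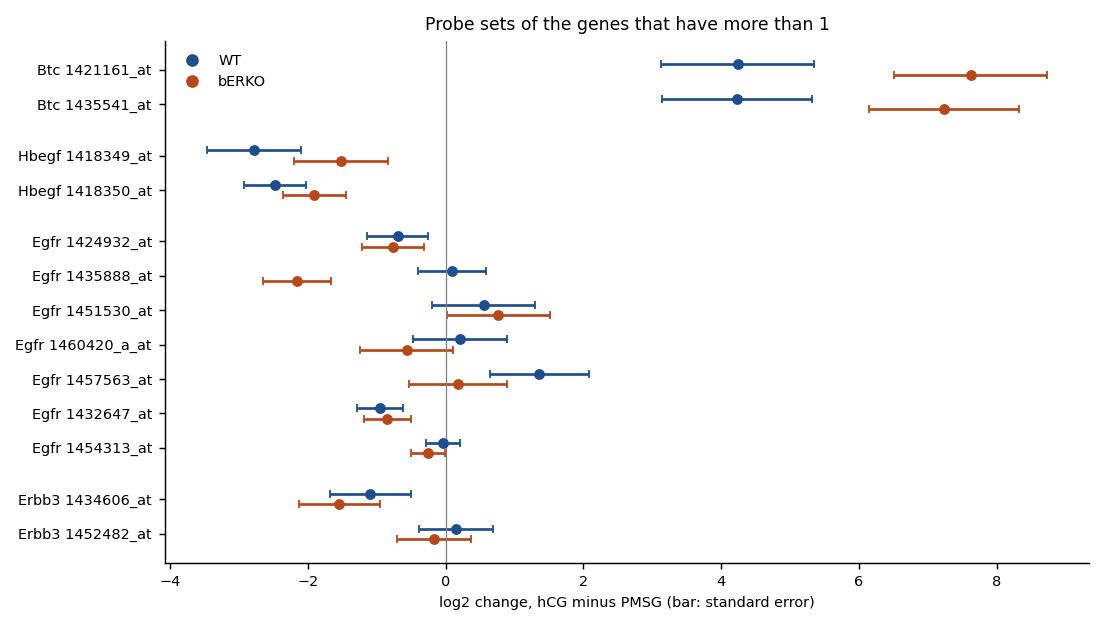
Change with hCG, as a log2 difference of group means with its SE, in WT and bERKO for every one-gene probe set of the 4 genes that have more than 1. Both probe sets of Btc agree in size and both of Hbegf lie below 0, while the 7 probe sets of Egfr spread from -2.15 to 1.36 and those of Erbb3 differ.

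Whether the genotypes differed was asked at each treatment and for the response itself. After PMSG, none of the 7 genes passed (0 in limma, where 0.011% of all genes passed), and 1 had an unadjusted p under 0.05. That gene was Hbegf, which measured 9.44 ± 0.46 in WT and 7.51 ± 0.91 in bERKO (SD, n = 3), a change of -1.93 (SE 0.68; limma adjusted p = 0.399). The 3 bERKO values lay below the 3 WT values, and the second probe set gave a change of -1.88. The other 6 genes overlapped between the genotypes after PMSG, with changes from -0.48 for Btc to 0.63 for Erbb2. Over all genes, 6.58% were lower and 8.14% higher in bERKO without overlap, so 1 of 7 was near that background.

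After hCG, again none of the 7 passed between the genotypes (0 in limma, where 3.09% of all genes passed), and 4 had an unadjusted p under 0.05. Ereg, Btc and Epgn were each above WT on every bERKO array, 3 of 7 genes, where 11.4% of all genes were higher and 13.2% lower without overlap. Their changes were 2.38 for Ereg (limma adjusted p = 0.236), 2.90 for Btc (0.197) and 3.13 for Epgn (0.108). WT hCG replicate 1 made up much of these sizes: without it they were 0.82, 1.10 and 1.60. The change of 1.60 for Epgn passed without both arrays of high Gapdh ratio (limma adjusted p = 0.031) but not without WT hCG replicate 1 alone (0.106). Erbb2 was lower in bERKO by a change of -1.45 (limma adjusted p = 0.177), with the highest bERKO array, 6.86, just above the lowest WT array, 6.83. Hbegf, Egfr and Erbb3 had changes of -0.67, -0.10 and -0.71.

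The difference between the hCG responses of the genotypes did not pass for any of the 7 genes either (0 in limma, where 1.31% of all genes passed), and 2 had an unadjusted p under 0.05. It was 2.55 for Ereg (95% interval -0.51 to 5.62; limma adjusted p = 0.42), 3.38 for Btc (-0.08 to 6.84; 0.34) and 3.28 for Epgn (0.29 to 6.27; 0.281). Without WT hCG replicate 1 these were 1.0, 1.58 and 1.75, and without both arrays of high Gapdh ratio Epgn was at 2.20 and passed (limma adjusted p = 0.0464). For Erbb2 the difference was -2.08 (-3.74 to -0.43; limma adjusted p = 0.219), and for Hbegf it was 1.26 (0.577). A rise of Btc or Epgn that passed in bERKO and not in WT therefore does not show that the genotypes responded differently.

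**Figure D4:**
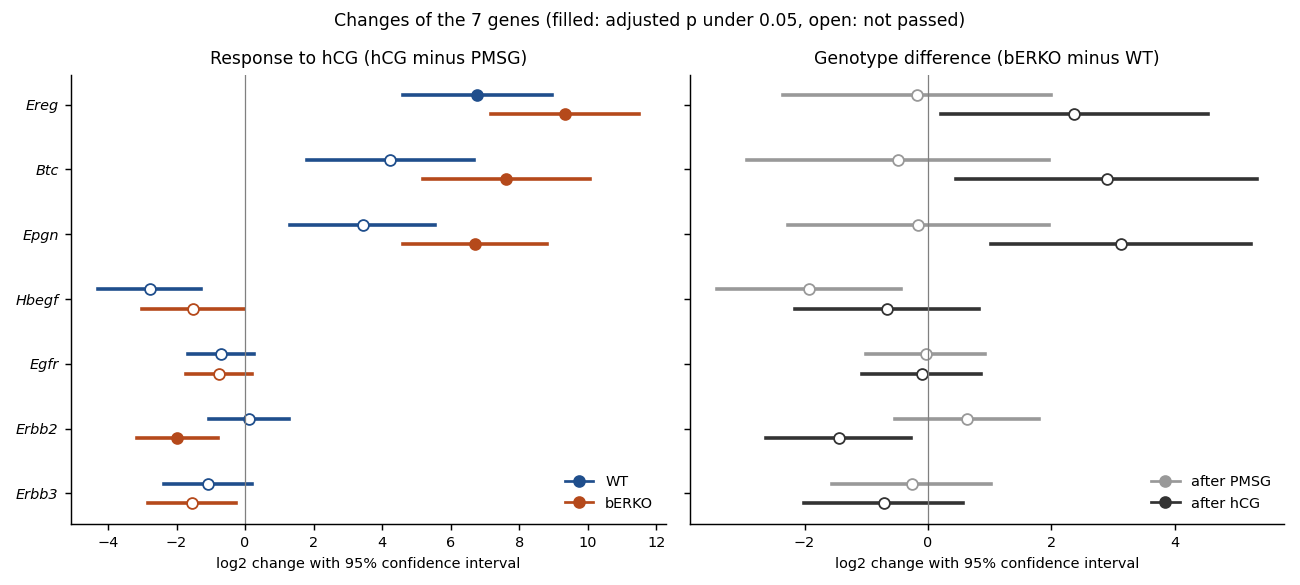
Changes of the 7 genes as log2 differences of group means with 95% intervals: the response to hCG in each genotype on the left, the difference between genotypes after each treatment on the right; filled points passed (limma adjusted p under 0.05). Ereg, Btc and Epgn lie far to the right of 0 in the response panel, and every point of the genotype panel is open.

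By group means, the order of levels was the same for these 3 ligands at its upper end. Ereg, Btc and Epgn were highest in bERKO hCG (13.83, 13.84 and 11.98), then in WT hCG (11.45, 10.94 and 8.85), and lowest in both PMSG groups. WT and bERKO after PMSG were neighbours that did not differ beyond their spread. WT hCG and bERKO hCG differed by less than the SD within WT hCG for Ereg and Btc, at 2.69 and 3.15, and by slightly more than the SD of 2.65 for Epgn. That SD came mainly from WT hCG replicate 1: between replicates 2 and 3 it was 0.22, 0.62 and 0.13 (SD, n = 2), below the differences of 0.82, 1.10 and 1.60 from bERKO hCG. Hbegf ran in the order WT PMSG (9.44), bERKO PMSG (7.51), WT hCG (6.65) and bERKO hCG (5.98), of which WT PMSG did not overlap the next group and the other 3 overlapped one another. Erbb2 was lowest in bERKO hCG (6.0), and its other groups, from 7.34 to 7.97, overlapped. Erbb3 ran from 7.90 in WT PMSG to 6.09 in bERKO hCG, and Egfr from 9.22 in WT PMSG to 8.42 in bERKO hCG, and each group overlapped the next in order.

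Several genes followed the ligands closely over the 12 arrays. The 3 genes most like Ereg by Pearson's r were Pcsk5, a proprotein convertase (0.99), Sult1e1, the estrogen sulfotransferase (0.98), and Star, which moves cholesterol into mitochondria (0.98). For Btc they were Ybx1, Zfand5 and Sult1e1, each at 0.99, and for Epgn the early response factor Egr3, the synaptic protein gene Snap25 and the amino acid transporter gene Slc7a8, each at 0.99. The closest to Hbegf were Gemin7 (0.92), Esyt1 (0.91) and Dock8 (0.90). Among the receptors, the closest genes were Clstn2 for Egfr (0.93), Dbndd1 for Erbb2 (0.92) and Cpq for Erbb3 (0.91). These values describe arrays that share their treatment and were picked as the highest of all genes.

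The other EGF-family genes showed no such rise. Of the 7 measured, Tgfa, Egf, Nrg1, Nrg2, Nrg3, Nrg4 and Erbb4, none passed in any of the 5 comparisons (0 in limma, with 0 at an unadjusted p under 0.05). Tgfa, a ligand of the EGF receptor, had changes of 0.48 in WT and 0.69 in bERKO. Erbb4, the fourth receptor of the family, had changes of -0.32 and -0.67. In bERKO the smallest p belonged to Nrg4 and Nrg1, with changes of 1.48 and 1.25 (limma adjusted p = 0.171 and 0.25). Their changes in WT were 0.30 and 0.14. With 1 array left out, the count that passed as higher in bERKO stayed at 0 in 11 of 12 fits and otherwise reached 1. The array means of these 7 genes, 5.51 to 6.26, were low, and the 6 measured genes of the Y chromosome, which female ovaries lack, had array means of 5.07 to 6.08 on the same scale.

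Shedding of the ligands from the membrane was read from 10 genes. In WT 0 passed in limma, with 3 at an unadjusted p under 0.05, and the median change was -0.55. In bERKO the median was 0.59, against -0.19 over all genes, of which 7.05% passed as higher and 11.9% as lower. Of the 10 genes, 4 passed as higher there and 0 as lower. These were Rhbdf2 and Rhbdf1, the iRhoms that carry the sheddase ADAM17 to the cell surface (2.45 and 1.13; limma adjusted p = 0.00389 and 0.03), Adam19, another membrane protease (2.42; 0.0196), and Timp3, an inhibitor of ADAM17 (1.91; 0.0345). Rhbdf2 kept its call whichever array was left out. The others did not. Rhbdf1 lost its call without any 1 of 5 arrays and Adam19 without any 1 of 3 (limma adjusted p of up to 0.0862 and 0.0785, both without bERKO hCG replicate 1), and Timp3 lost it without any 1 of 4 (up to 0.11, without bERKO PMSG replicate 3). Adam17 itself, the chief sheddase, had changes of -0.65 in WT and -0.91 in bERKO (limma adjusted p = 0.386 and 0.0947; in bERKO 0.0398 with WT hCG replicate 1 left out of the fit). Under other settings the changes of Adam17 ran from -1.02 to 0.07 in WT and from -1.35 to -0.05 in bERKO. After hCG, Adam9 was higher in bERKO than in WT by 1.26, the 1 call of the list there; it was lost when any 1 of 10 arrays was left out, with a limma adjusted p of up to 0.154 (without bERKO hCG replicate 1).

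Adam19 was the 1 gene of these 10 whose difference of hCG responses passed, and it was the dimmest of them. Its group means were 6.71 in WT PMSG, 4.62 in bERKO PMSG, 4.88 in WT hCG and 7.04 in bERKO hCG. The means of 4.62 and 4.88 lay below the array means of the Y chromosome genes, 5.07 to 6.08. Adam19 had a change of -1.82 in WT, which did not pass (limma adjusted p = 0.16), and rose by 2.42 in bERKO. The difference was 4.25 (limma adjusted p = 0.0428). That call was lost when any 1 of 9 arrays was left out, with the highest limma adjusted p, 0.103, without WT PMSG replicate 3. As the mean of its probe sets the difference was 2.07.

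Genes that damp the receptors, 12 in all, included 5 that passed as higher and 1 as lower with hCG in bERKO. Over all genes 7.05% and 11.9% did. The median change was 0.36, against -0.19 over all genes. Errfi1, which binds the kinase domain of the EGF receptor and blocks it, rose by 4.45 (limma adjusted p = 0.00151). The ubiquitin ligases Cbl and Cblb, which mark the receptor for degradation, rose by 1.81 and 1.52 (limma adjusted p = 0.00191 and 0.00505), and Socs5 rose by 1.5 (0.0027). These 4 kept their calls whichever array was left out. In WT Cbl alone passed, with a rise of 1.30 (limma adjusted p = 0.0497), where 0.731% of all genes passed as higher. That call was lost when any 1 of 10 arrays was left out (limma adjusted p = 0.153 without WT PMSG replicate 3). Errfi1 in WT had a change of 2.34 (limma adjusted p = 0.111); leaving out WT hCG replicate 1 gave 3.28, which passed (0.00997). The gene that passed as lower in bERKO was Sh3kbp1, an adaptor of Cbl in receptor uptake (-1.85, limma adjusted p = 0.00626). The fifth that passed as higher was Lrig3 (2.04, limma adjusted p = 0.0243). Its call was lost without any 1 of 3 arrays (limma adjusted p of up to 0.0855, without bERKO hCG replicate 3). Sh3kbp1 and Lrig3 were named after their values were seen.

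The relay from the receptor to the MAP kinases was read from 16 measured genes. In bERKO 4 passed as higher and 1 as lower, where 7.05% and 11.9% of all genes did. The median change was 0.33, against -0.19 over all genes. Sos2, an exchange factor that loads RAS with GTP, and Grb2, the adaptor that brings it to the receptor, rose by 1.72 and 1.5 (limma adjusted p = 0.00138 and 0.0104), and both kept the call whichever array was left out. Gab1, a docking protein of the pathway, fell by 1.80 on the log2 scale (limma adjusted p = 0.0131), a call lost without bERKO hCG replicate 1 (0.0516) or replicate 3. In WT 1 of the 16 passed, again Sos2, with a rise of 1.58 (limma adjusted p = 0.017), where 0.731% of all genes passed as higher. The call was lost without WT hCG replicate 2 (limma adjusted p = 0.0732) or any 1 WT PMSG array. The median in WT was 0.25, against -0.08 over all genes.

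The last pathway list held 10 ovulatory genes, grouped as downstream of EGF receptor signalling. Whether hCG acted on them through that receptor was not tested. They rose broadly in bERKO, with a median change of 4.43. There 9 of 10 passed as higher, where 7.05% of all genes did. In WT 3 of 10 passed as higher, where 0.731% of all genes did, with a median change of 2.82, against -0.08 over all genes. With all arrays, 8 of the 10 had an unadjusted p under 0.05 in WT. Without both arrays of high Gapdh ratio 7 of 10 passed as higher. Ptgs2, the prostaglandin synthase of ovulation, rose by 6.75 in WT (limma adjusted p = 0.0125; lost without WT PMSG replicate 1 or 2 or WT hCG replicate 2, at up to 0.0622) and by 9.40 in bERKO (3.20e-04). In bERKO Ptx3, a protein of the cumulus matrix, rose by 8.35, Has2, which makes hyaluronan, by 4.99, and the early response factor Egr1 by 3.86. Their WT values were 4.61, 2.95 and 2.70, of which Egr1 passed (limma adjusted p = 0.0383; lost without any 1 of 8 arrays, up to 0.147 without WT PMSG replicate 1). Without WT hCG replicate 1, Ptx3 and Has2 passed in WT too, at 6.36 and 3.85 (limma adjusted p = 4.35e-04 and 0.0121). None of the 10 passed for the difference of responses (0 in limma), with 3 at an unadjusted p under 0.05.

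**Figure D5:**
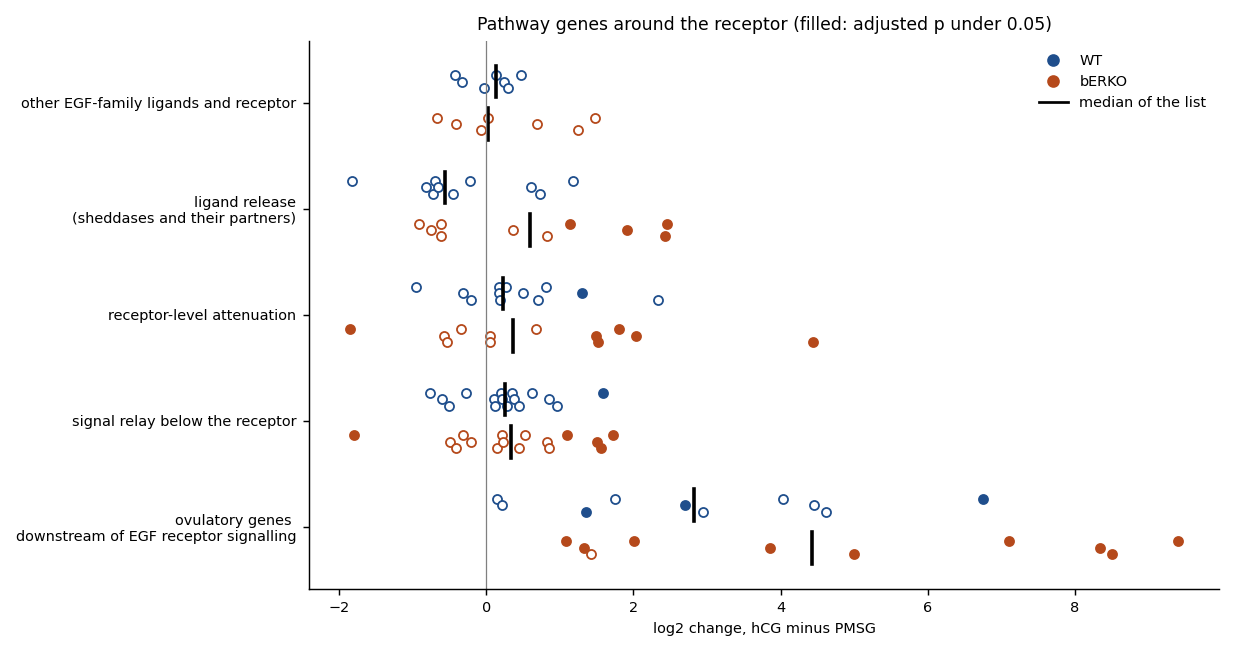
Change with hCG, as a log2 difference of group means, for every measured gene of 5 pathway lists in WT and bERKO; filled points passed (limma adjusted p under 0.05) and black bars are list medians. The medians of the ovulatory list, 2.82 in WT and 4.43 in bERKO, stand apart from those of the other lists, which lie between -0.55 and 0.59.

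Markers of some other cells stood higher in the bERKO hCG group, in which the 3 ligands were highest and Erbb2 lowest. The mean level of 8 endothelial genes was 6.89 to 8.22 on those arrays, against 4.90 to 6.20 on the other 9, and 5 of the 8 passed as higher with hCG in bERKO. Leukocyte markers (8 genes) were at 6.33 to 7.50 there against 5.14 to 6.30 elsewhere, with 2 of 8 passing. Markers of stroma and smooth muscle (8 genes) were at 7.85 to 9.23 against 5.91 to 8.32, with 1 of 8 passing. None of these leukocyte and stroma calls held whichever array was left out. Over all genes 7.05% passed as higher with hCG in bERKO. Surface epithelium markers (6 genes) were at 5.72 to 6.22 in bERKO hCG against 5.64 to 6.19 elsewhere, with 0 passing. Theca markers (5 genes) were at 10.28 to 10.42 in bERKO hCG and at 9.98 to 10.59 in WT hCG, against 9.10 to 9.79 on the PMSG arrays. Their median change with hCG was 0.46 in WT and -0.12 in bERKO. Of the 5, Star passed as higher in both genotypes and Ptch1 as lower in bERKO. Of these calls, that of Star in bERKO alone held whichever array was left out. In WT 0.731% of all genes passed as higher. The lowest group mean of an endothelial gene was 4.40, in bERKO PMSG, close to the floor of 4. Outside bERKO hCG the endothelial array means were near those of the Y chromosome genes, 5.07 to 6.08. Oocyte markers (10 genes) were at 8.35 to 9.75 on the bERKO PMSG arrays against 5.71 to 8.16 after PMSG in WT. The value of 9.75 was on bERKO PMSG replicate 3, an array of high Gapdh ratio. For that genotype difference 0 of the 10 passed in limma, with 8 at an unadjusted p under 0.05. Among granulosa markers 4 of 8 passed as lower with hCG in bERKO, where 11.9% of all genes did. Among them were Fshr, which fell by 1.84 on the log2 scale (lost without any 1 of 5 arrays), and Foxl2, which fell by 1.56. In WT 0 of 8 passed in limma, with 0 at an unadjusted p under 0.05. Without both arrays of high Gapdh ratio, the counts of endothelial and granulosa genes that passed in bERKO were again 5 and 4. The part of other cells in the values of the 7 genes was not tested.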

How the data were processed

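The table deposited by the authors held linear intensities for each probe set of 12 one-colour Affymetrix-type arrays, each array scaled to a 2% trimmed mean of 500.0. No source used here names the signal software. Per the labels, 25 ng of RNA per array was amplified with a NuGEN system. Of 45101 probe sets 64 controls were left out, and the others were quantile normalized and taken as log2(intensity + 16). Genes came from the 34945 probe sets that name 1 gene (932 name several, and 9160 were not listed). Array medians before normalization ran from 6.02 to 7.00 on the log2 scale, and the number of arrays limits the precision.

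Group means over all 12 arrays were fitted with limma 3.58.1 (R 4.3.3) and eBayes, in 5 contrasts, two-sided, with Benjamini-Hochberg adjustment over 18193 genes. The genes, lists and alternatives were chosen with earlier results of these data known. Each list names up to 4 genes per comparison, those of smallest p. Adam17, Esr2, Fshr, Foxl2, the genes around Epgn and Btc, and WT values of genes named for bERKO fall outside that rule and were named after their values were seen. Alternatives were an offset of 1, values as deposited, median centring, a filter on dim genes, the mean of all probe sets, array weights, a replicate block and arrays left out. On simulated data with 200 changed genes, the fit recovered 93.6% of genes with a log2 change of 4 for hCG minus PMSG in WT, 54.3% at 2 and 7.16% at 1. For the difference of responses it recovered 72.4%, 21.2% and 0.896%. The simulation gave each gene the same SD in all groups. The SDs of Ereg, Btc and Epgn were 2.65 to 3.15 in WT hCG and 0.24 to 0.37 in bERKO hCG, so these rates need not hold for them. Same-numbered arrays did not deviate together (r from -0.04 to 0.12), so the numbers were not taken as pairs. Figures used Python 3.11.15 and matplotlib 3.10.9.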

Additional observations from a re-analysis of the deposited data

Results flagged for a closer look

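The hCG responses of 3 genes differed between the genotypes in limma's test of the difference itself. For Adam19, a membrane protease of the ligand-release list, the difference was 4.25 (limma adjusted p = 0.0428). Its means in bERKO PMSG and WT hCG, 4.62 and 4.88, were near the floor of 4. For the endothelial markers Cdh5, vascular endothelial cadherin, and Emcn, endomucin, it was 4.03 (limma adjusted p = 0.0228) and 3.70 (0.00819). The call of Adam19 was lost without any 1 of 9 of the 12 arrays (limma adjusted p of up to 0.103, without WT PMSG replicate 3). Emcn kept the call whichever array was left out, whereas Cdh5 lost it without any 1 of 4 arrays (limma adjusted p of up to 0.0618, without bERKO hCG replicate 2). Of the 7 EGF-like ligand and receptor genes, none met this criterion.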

How the results depend on the processing

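Over 35 results (7 genes in 5 comparisons), 258 of 280 values under other settings and 392 of 420 with 1 array left out kept their direction and side of the threshold. The count of the 7 genes that passed with hCG in WT, 1 in the values above, was 2 with median centring, with the filter on dim genes and with the mean of all probe sets, 4 with array weights, 3 without both arrays of high Gapdh ratio, and 1 to 3 with 1 array left out. Without both arrays it was 1 between genotypes after hCG and 1 for the difference of responses; the cause was not tested. These directions turned, none passing: Egfr with hCG in WT (0.074), Adam17 there (0.071) and Btc between genotypes after PMSG (0.031) as means of all probe sets; Erbb2 with hCG in WT (-0.066 with weights, -0.26 without both arrays); Ereg after PMSG (0.089 centred, 0.027 without both arrays); Egfr after PMSG (0.065 centred, 0.17 with weights, 0.30 without both arrays); and Erbb3 in the difference of responses (0.33 without both arrays). With 1 array left out, ranges that cross 0 were -0.26 to 0.42 for Erbb2 with hCG in WT, -0.55 to 0.21 (Ereg), -0.60 to 0.076 (Epgn), -0.54 to 0.30 (Egfr) and -1.07 to 0.38 (Erbb3) between genotypes after PMSG, -1.47 to 0.024 (Hbegf) and -0.25 to 0.029 (Egfr) after hCG, and -0.40 to 0.44 (Egfr) and -1.09 to 0.35 (Erbb3) for the difference of responses.

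With a replicate block, added although the numbers did not pair the arrays, Ereg in WT had a limma adjusted p of 0.0297 and Erbb2 in bERKO 0.0448, and 1 and 4 of the 7 genes passed, so no call changed. The block lowered the count of all genes that passed with hCG in WT from 378 to 148 and for the difference of responses from 239 to 129. That count in WT was 140 with an offset of 1, 233 with values as deposited, 699 with the dim filter, 1598 with weights, 835 without both arrays and 49 to 580 with 1 array left out. In bERKO it was 2302 to 3969 over all settings. Between genotypes it was 0 to 26 after PMSG (2 with all arrays); after hCG, 562 became 225 with an offset of 1, 1239 with weights, 259 without both arrays and 141 to 684 with 1 array left out; the difference of responses gave 95, 420, 120 and 81 to 408. The spread of dim genes near the floor, such as Ereg after PMSG, limits the size given to their changes.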
